A study of Mus musculus with 6 samples.

Results

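Fam13a, Syt12, Eps8l1, Uck2 and Fam102b are 5 mouse genes outside the usual lists of cardiac hypertrophy. They were picked by name because their counts and FPKM moved the same way in each of 3 libraries from angiotensin II (Ang II) hearts relative to 3 control hearts. They are 5 of the 55401 genes in the deposited table, and all 5 passed the filter on low counts that left 16759 genes for testing. Because the Ang II against control contrast chose them, their own values are given below as a description without a test. Tests are given for relatives, pathway genes and neighbours, which the choice did not use.

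The study measured polyadenylated RNA of whole heart tissue by RNA sequencing. All 6 libraries came from C57BL/6 mice aged 6 to 8 weeks, 3 labelled control and 3 labelled as induced by Ang II, the peptide hormone that constricts vessels and raises blood pressure. No genetic change is labelled in either group, and the dose, duration and route of Ang II, the sex of the mice and what the control mice were given are not stated in the labels. The title of the series concerns a further compound in hypertensive heart failure, which is not among these 6 samples. The extraction text speaks of an adipose type, whereas every tissue label says heart.

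The known roles of these genes differ. Fam13a has been linked to Wnt and fatty acid signalling. Syt12 is an atypical synaptotagmin, a vesicle membrane protein whose C2 domains lack the usual calcium-binding residues. Eps8l1 belongs to the Eps8 family of actin-regulating adaptors that link receptor tyrosine kinases to Rac. Uck2 phosphorylates uridine and cytidine, the first step by which cells salvage pyrimidine nucleosides. Fam102b holds an N-terminal C2 (NT-C2) domain, and little is established about its function.

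The total estimated count per library ran from 53583726 to 57844780 in the controls and from 51202916 to 63564869 in the Ang II hearts. Mitochondrial genes took 35.8% to 47.6% of the counts. Ang II replicate 1 stood apart on the first principal component, at 119.9 against a range of -31.9 to -19.8 for the other 5 libraries, and values without it are given where it moves a result. Cardiomyocyte genes were abundant in every library (8 markers, summed FPKM 10848 to 16836 in controls and 18870 to 20223 in Ang II hearts). No label says more about the separate origin of the libraries than their numbers, so p-values below measure the spread between these samples.

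Promoter sequences were read from RefSeq on GRCm38.p6 for 4 of the 5 genes (Uck2, Fam102b, Fam13a and Eps8l1), since a shared sequence feature would be the first thing to look for among genes that differ together. Each window runs 5′ to 3′ on the gene's strand from 250 bases before to 50 bases after the RefSeq start. Capitals mark matches, on either strand, to any of 10 short motifs. The windows are chr1:167285078-167285377 (minus strand) for Uck2, chr3:109027558-109027857 (minus) for Fam102b, chr6:59024453-59024752 (minus) for Fam13a, and chr7:4460447-4460746 (plus) for the first of 3 RefSeq starts of Eps8l1.
Uck2: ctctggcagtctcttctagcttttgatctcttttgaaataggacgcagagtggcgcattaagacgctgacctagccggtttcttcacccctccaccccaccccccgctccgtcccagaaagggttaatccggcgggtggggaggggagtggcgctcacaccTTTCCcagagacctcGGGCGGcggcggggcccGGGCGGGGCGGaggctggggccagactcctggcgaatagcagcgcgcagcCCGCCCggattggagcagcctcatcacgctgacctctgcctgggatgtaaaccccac
Fam102b: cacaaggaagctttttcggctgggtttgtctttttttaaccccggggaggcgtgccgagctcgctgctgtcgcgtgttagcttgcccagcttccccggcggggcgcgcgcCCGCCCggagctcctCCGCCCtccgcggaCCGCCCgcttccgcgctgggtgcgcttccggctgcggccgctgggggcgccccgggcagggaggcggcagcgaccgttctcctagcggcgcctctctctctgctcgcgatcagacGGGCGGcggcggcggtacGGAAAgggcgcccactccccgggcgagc
Fam13a: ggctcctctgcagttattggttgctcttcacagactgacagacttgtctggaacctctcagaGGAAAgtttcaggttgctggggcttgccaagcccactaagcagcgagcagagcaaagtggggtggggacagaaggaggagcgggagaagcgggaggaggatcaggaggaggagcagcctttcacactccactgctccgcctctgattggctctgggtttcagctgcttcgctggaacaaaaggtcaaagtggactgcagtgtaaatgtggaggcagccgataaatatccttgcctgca
Eps8l1: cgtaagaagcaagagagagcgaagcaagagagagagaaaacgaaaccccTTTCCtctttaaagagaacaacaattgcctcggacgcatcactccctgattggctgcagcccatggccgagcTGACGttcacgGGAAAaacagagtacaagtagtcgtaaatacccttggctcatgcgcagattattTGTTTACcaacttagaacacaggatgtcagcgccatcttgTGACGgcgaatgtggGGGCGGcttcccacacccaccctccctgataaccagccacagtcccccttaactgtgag

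These windows had little in common. Fam102b, the gene that was lower with Ang II, had the most GC-rich of the 4, with 73.3% GC and 43 CpG pairs, more CpG pairs than 97.4% of all 32851 mouse promoters of 300 bases. Uck2 had 64.7% GC and 22 CpG pairs. Fam13a, at 55.0% GC and 6 CpG pairs, and Eps8l1, at 51.3% GC and 14 CpG pairs, were nearer the medians of 52.7% GC and 7 CpG pairs.

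The GC box (GGGCGG) occurred 4 times in the Uck2 window, 4 times in that of Fam102b and 1 time in that of Eps8l1, and it is present in 35.7% of all promoters. Counted from the start, the matches in Uck2 began at -74, -57, -52 and -7, and the matches at -57 and -52 share a base. In Fam102b they began at -140, -125, -111 and 5. The NFAT core (GGAAA) was the only motif matched in all 4 windows, and 61.3% of promoters hold it. Eps8l1 held the CRE half-site (TGACG, 20.8% of promoters) 2 times and the FoxO letters (GTAAACA, 3.65%) 1 time. None of the 4 windows held the AP-1 site (TGANTCA, 7.81% of promoters), the E-box (CACGTG, 7.15%), the MCAT element (CATTCC, 14.7%), the GATA site (AGATAA, 11.2%), the TATA box (TATAAA, 13.6%) or the hypoxia response core (ACGTG, 19.6%, which the E-box contains). The windows of the other 2 RefSeq starts of Eps8l1, not shown, held the hypoxia response core at -244 and -38 and the GATA site at 45. A match here is a description of letters and not a binding site.

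Among the signalling and adaptor genes, Fam13a (ENSMUSG00000037709, chr6:58932090-59024549, minus strand, 19 merged exons over 92.5 kb) stood at 5.14, 5.72 and 5.73 CPM (counts over TMM-scaled library size) in the 3 controls. Its CPM was 17.3, 21.1 and 19.6 in the 3 Ang II libraries. The lowest Ang II value was 3.02 times the highest control, and the control libraries were tight around 5.53 ± 0.335 CPM (SD, n = 3) against 19.3 ± 1.91 CPM (SD, n = 3). The fitted log2 change was 1.80 (SE 0.15), or 3.49-fold, and 1.88 without Ang II replicate 1. In a tissue extract, more RNA per cell and more cells that hold the RNA cannot be told apart, here or for any gene below.

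Eps8l1 (ENSMUSG00000006154, chr7:4460674-4479244, plus strand) stood at 1.84, 2.54 and 1.84 CPM in controls and at 6.72, 7.68 and 7.72 CPM in Ang II hearts. The groups did not overlap, with 2.65 times between the nearest libraries. The means were 2.07 ± 0.404 and 7.37 ± 0.567 CPM (SD, n = 3 each), and the fitted log2 change was 1.83 (SE 0.21), or 3.55-fold. Fam13a and Eps8l1 therefore had fitted changes within 1 SE of each other, from control levels that differed per length (mean FPKM 0.483 for Fam13a and 0.313 for Eps8l1).

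Syt12 (ENSMUSG00000049303, chr19:4445908-4477447, minus strand) had the lowest control level of the 5 genes per length, and the largest fitted change of the 4 that were higher with Ang II. Its CPM was 0.788, 1.40 and 1.02 in controls, from 36, 93 and 56 counts. In Ang II hearts it was 6.97, 5.97 and 6.11 CPM, from 303, 420 and 435 counts. The nearest libraries were 4.28 times apart, and control 2 was the highest control while Ang II replicate 1 was the highest of all 6. The means were 1.07 ± 0.307 and 6.35 ± 0.539 CPM (SD, n = 3 each), with a fitted log2 change of 2.56 (SE 0.27), or 5.91-fold.

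Uck2 (ENSMUSG00000026558, chr1:167222883-167285320, minus strand), the salvage kinase, had the highest level of the 5 per length in every library. It stood at 13.5, 15.4 and 12.1 CPM in controls and at 32.5, 44.0 and 40.8 CPM in Ang II hearts. Ang II replicate 1 was the lowest of its group and still 2.11 times the highest control. The means were 13.7 ± 1.66 and 39.1 ± 5.95 CPM (SD, n = 3 each), with a fitted log2 change of 1.52 (SE 0.18), or 2.86-fold, the smallest of the 5. Without Ang II replicate 1 the fold was 3.11.

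Fam102b (ENSMUSG00000040339, chr3:108970997-109027607, minus strand) went the other way. It stood at 10.6, 9.20 and 10.6 CPM in controls, a narrow range, and at 0.0920, 0.341 and 0.646 CPM in Ang II hearts. The Ang II values rest on 4, 24 and 46 counts, against 483, 613 and 584 counts in controls. The exact 95% Poisson intervals of the 3 Ang II libraries were 0.0251 to 0.236, 0.219 to 0.508 and 0.473 to 0.862 CPM. They take the estimated counts as if they were read counts, and cover counting error only. The interval of Ang II replicate 2 overlapped both others, and those of replicates 1 and 3 did not overlap. The lowest control was 14.2 times the highest Ang II library. The means were 10.1 ± 0.802 and 0.360 ± 0.278 CPM (SD, n = 3 each), a ratio of 28.1, and the fitted log2 change was -4.76 (SE 0.57), or 27.0-fold lower. Without Ang II replicate 1 it was 20.4-fold lower.

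**Figure D1:**
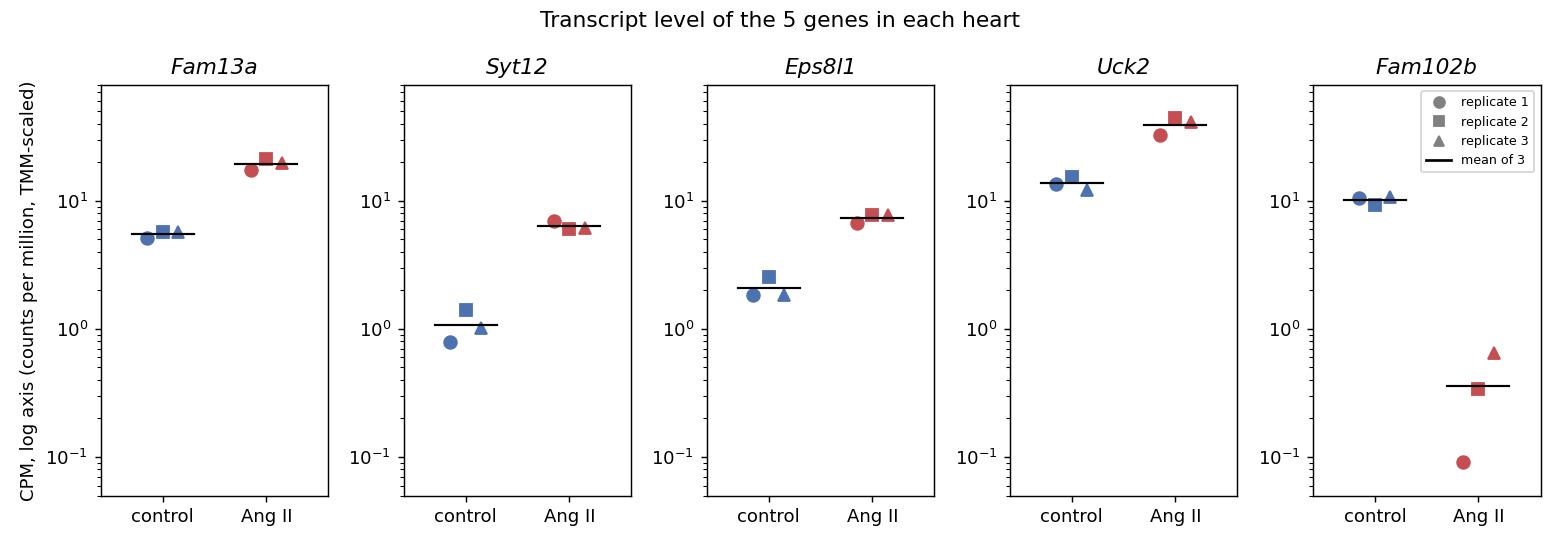
CPM of each of the 5 genes (log axis) in the 3 control and 3 Ang II libraries, with a point per library and a bar at the group mean. The groups do not overlap for any of the 5, and the Ang II points of Fam102b, 0.0920 to 0.646 CPM, are the most scattered.

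Each of the 5 genes was chosen for groups that do not overlap, and 17.2% of all 16759 genes had non-overlapping groups in either direction (7.97% higher and 9.21% lower with Ang II), so nothing is read from that count. Among all genes 50.9% had a fold above 0 on the log2 scale, against 4 of these 5. Nothing is read from this either, since the choice rested on the same contrast. Ranked by fitted log2 change from the top, Syt12 was at place 39, Eps8l1 at 131, Fam13a at 137 and Uck2 at 230. Fam102b was at place 10 from the bottom. The median log2 change of all tested genes was 0.01. The deposited FPKM are not TMM-scaled. On the log2(FPKM + 0.5) scale the changes of 4 of the 5 were smaller because the pseudocount is near their levels. They were 1.18 for Fam13a, 1.21 for Syt12, 1.02 for Eps8l1 and -1.91 for Fam102b. Uck2, the highest of the 5 per length, is left out of this comparison.

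**Figure D2:**
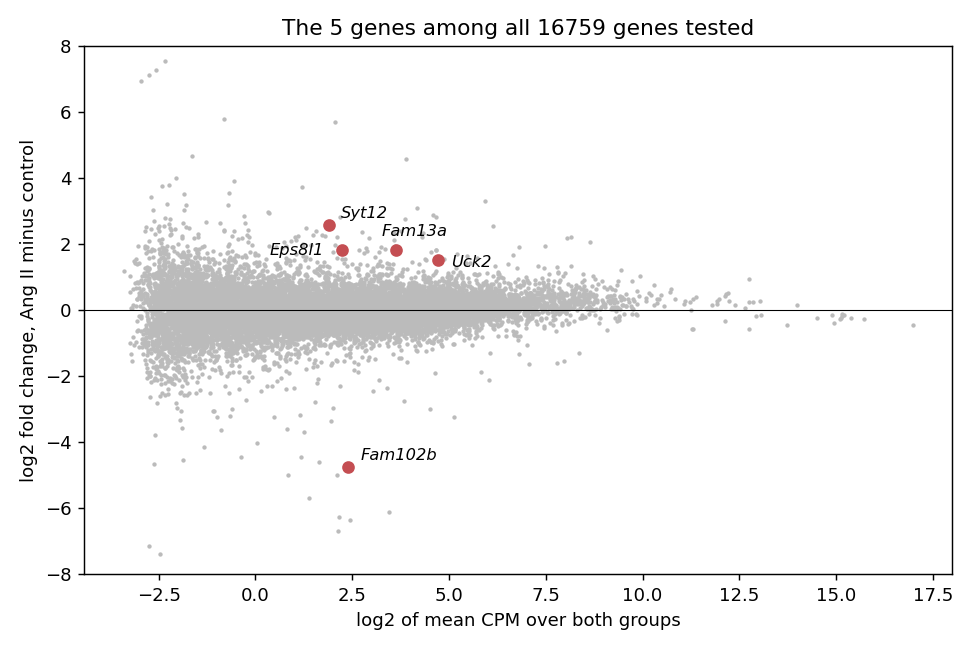
Log2 change (Ang II minus control) against log2 mean CPM for the 16759 genes tested, 1 grey point per gene, with the 5 genes in red. Syt12, Eps8l1, Fam13a and Uck2 lie above the bulk between 1.52 and 2.56, and Fam102b lies below it at -4.76.

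Per length, the order of the 5 genes was the same in all 3 controls, with Uck2 highest, then Fam102b, Fam13a, Eps8l1 and Syt12. In controls the mean FPKM was 2.29 for Uck2, 1.61 for Fam102b, 0.483 for Fam13a, 0.313 for Eps8l1 and 0.180 for Syt12. The order held within each control, although ranges of unscaled FPKM across the controls overlapped. That of Fam13a (0.360 to 0.573) overlapped that of Eps8l1 (0.221 to 0.439), and that of Eps8l1 overlapped that of Syt12 (0.103 to 0.266). In Ang II hearts the mean FPKM was 6.83 for Uck2, 1.75 for Fam13a, 1.15 for Eps8l1, 1.07 for Syt12 and 0.0617 for Fam102b. Ranges across libraries again overlapped between Fam13a and Eps8l1 and between Eps8l1 and Syt12. Within each Ang II library Fam13a was above Eps8l1, and Ang II replicate 1 had Syt12 above Eps8l1.

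These were modest levels in heart RNA. Among all tested genes, Uck2 exceeded 63.3% by mean FPKM in controls and 82.9% with Ang II. Fam13a exceeded 29.2% and then 56.7%, Eps8l1 21.8% and then 47.0%, and Syt12 14.3% and then 45.3%. Fam102b exceeded 55.1% of genes in controls and 4.68% with Ang II.

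Each of the 5 has close relatives, which the choice did not use. Of 16 tested relatives, edgeR's quasi-likelihood test (adjusted p under 0.05 over all genes tested) called 0, where it called 0.0358% of all genes higher and 0% lower. An unadjusted p under 0.05 was reached by 0 relatives upward and 5 downward, against 3.57% and 3.94% of all genes, and DESeq2 called 1 of the 16, Fam13c, where it called 1.65% of all genes. The fold was above 0 on the log2 scale for 4 relatives and below 0 for 12, with a median of -0.30. These lists were drawn up with earlier results of the same data known.

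In the Fam13 family, Fam13c, a relative of Fam13a, stood at 7.66, 6.25 and 6.16 CPM in controls and at 3.36, 2.65 and 3.06 CPM in Ang II hearts, so its groups did not overlap, in the direction opposite to Fam13a. The log2 change of Fam13c was -1.15 (SE 0.19). Its adjusted p was 0.249 by edgeR and 0.00012 by DESeq2. Fam13b, at 3.11 to 5.91 CPM in controls and 3.13 to 4.42 CPM with Ang II, had a log2 change of -0.33 (SE 0.29, edgeR adjusted p = 0.805). As a share of the family's summed FPKM, Fam13a made up 23.7%, 29.6% and 33.5% in controls and 64.9%, 75.2% and 71.1% in Ang II hearts. These shares, here and for the families below, rest on the values that chose the 5 genes and are a description.

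The heart libraries held few synaptotagmins beside Syt12, a family of which some members act as calcium sensors of vesicle release. Of 16 others, 7 passed the low-count filter, and Syt7, a slow calcium sensor of exocytosis, was the highest at a mean FPKM of 2.60 in controls and 2.33 with Ang II (log2 change -0.19, edgeR adjusted p = 0.797). Syt11, which does not bind calcium, had a log2 change of 0.12 (edgeR adjusted p = 0.881), and Syt2, Syt3 and Syt5 had log2 changes of -0.30, -0.45 and 0.78 (edgeR adjusted p = 0.953, 0.848 and 0.881). Syt15, at 1.05 to 1.47 CPM in controls and 0.437 to 0.640 CPM with Ang II, did not overlap between groups (log2 change -1.17, SE 0.33, edgeR adjusted p = 0.487). Syt17 was similar, at 0.727 to 1.05 and 0.239 to 0.370 CPM (log2 change -1.40, SE 0.40, edgeR adjusted p = 0.511). Syt12 made up 2.84%, 4.65% and 3.60% of the summed FPKM of all 17 synaptotagmins in controls and 23.1%, 18.6% and 20.4% in Ang II hearts.

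Of the Eps8 relatives, Eps8 itself, which caps and bundles actin, had a log2 change of -0.06 (SE 0.25, edgeR adjusted p = 0.956). Eps8l2 stood at 3.76, 4.31 and 4.93 CPM in controls and at 3.47, 2.02 and 2.36 CPM with Ang II (log2 change -0.73, SE 0.26, edgeR adjusted p = 0.599). Eps8l3 was below the filter. Eps8l1 made up 19.1%, 25.6% and 17.2% of the family's FPKM in controls and 53.3%, 57.4% and 56.0% in Ang II hearts.

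Uck1, the other uridine-cytidine kinase, stood at 5.74 to 9.05 CPM in controls and 8.70 to 8.92 CPM with Ang II, and these ranges overlap (log2 change 0.25, SE 0.20, edgeR adjusted p = 0.786). Uckl1, a kinase-like relative, had a log2 change of -0.30 (SE 0.17, edgeR adjusted p = 0.729). The Uck2 share of the 3 genes' FPKM was 27.6%, 30.7% and 24.7% in controls and 50.6%, 54.4% and 54.0% in Ang II hearts.

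Fam102a, the closest relative of Fam102b, stood at 16.5, 17.2 and 17.4 CPM in controls and at 14.8, 10.5 and 11.4 CPM in Ang II hearts. It was lower in all 3, with a log2 change of -0.48 (SE 0.17, edgeR adjusted p = 0.599). The other NT-C2 genes Ehbp1 and Ehbp1l1, which link membranes to actin, had log2 changes of -0.02 and 0.23 (edgeR adjusted p = 0.981 and 0.812). Fam102b made up 40.5%, 36.3% and 39.3% of the FPKM of the Fam102a and Fam102b pair in controls, and 0.504%, 3.26% and 5.64% in Ang II hearts.

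**Figure D3:**
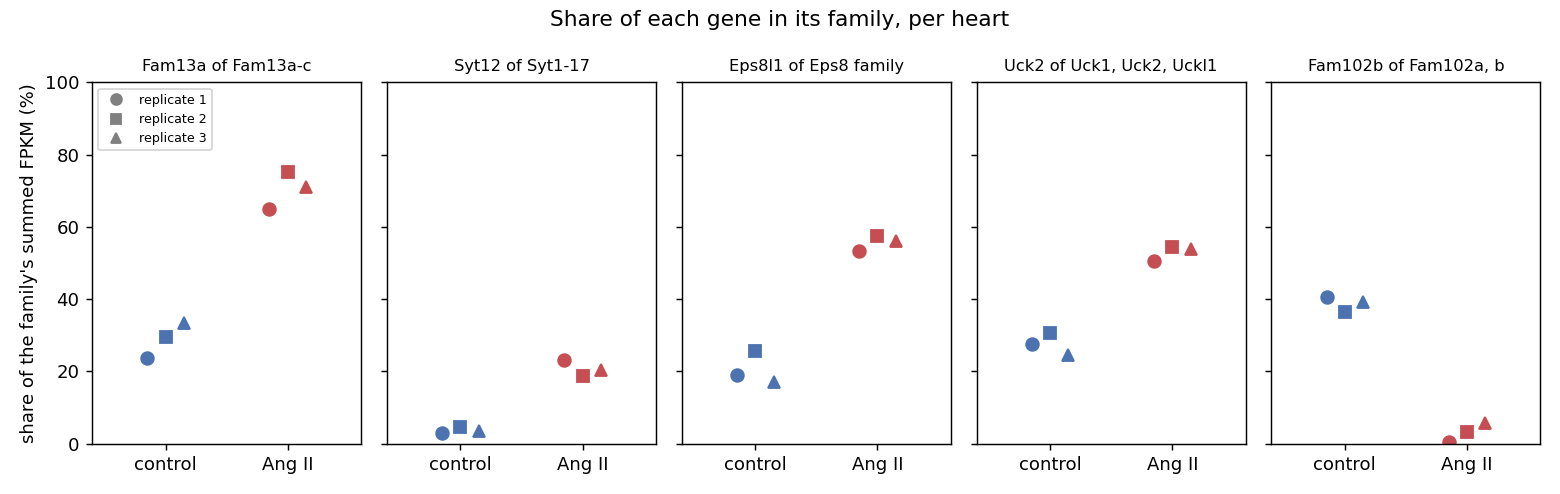
Share of the summed FPKM of its family (percent, y axis from 0) taken by each of the 5 genes in the 3 control and 3 Ang II libraries, 1 point per library. Fam13a, Eps8l1 and Uck2 pass from 17.2% to 33.5% in controls to 50.6% to 75.2% with Ang II, Syt12 reaches at most 23.1%, and Fam102b drops to at most 5.64%.

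**Figure D4:**
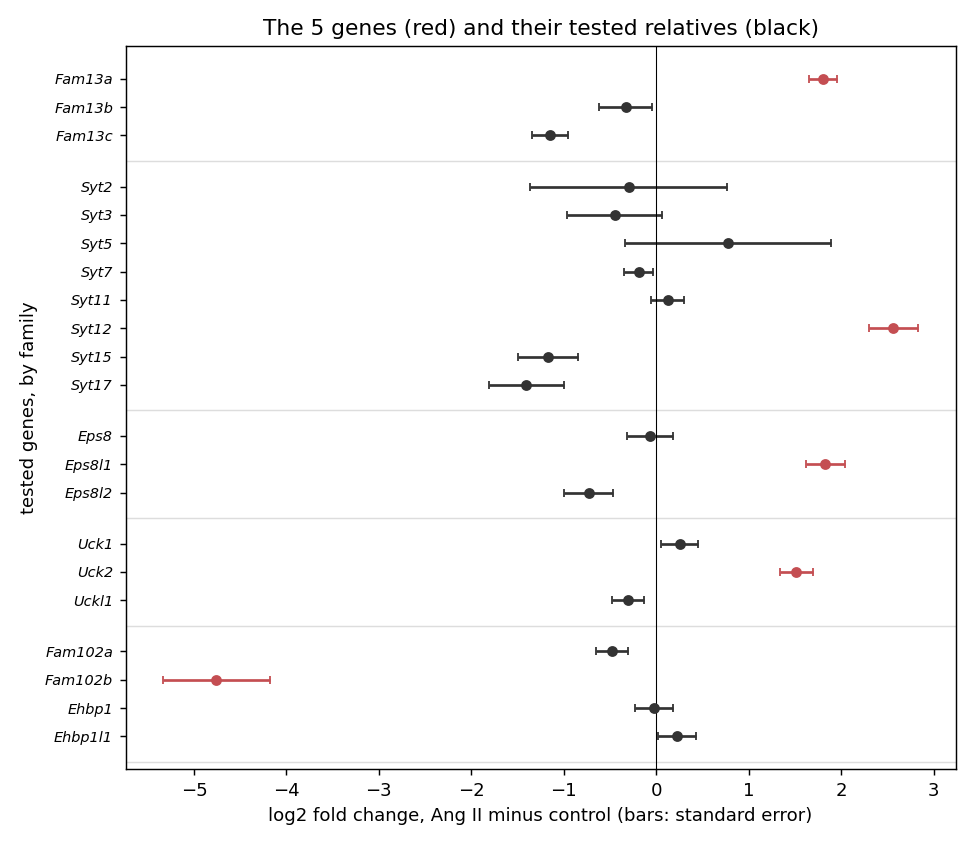
Log2 change (Ang II minus control) of each of the 5 genes and its tested relatives, 1 point per gene with bars of 1 SE, by family. The 16 relatives lie between -1.40 and 0.78, and the 5 genes were chosen for their change on this axis.

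Of 115 tested genes in 4 pathway lists around the 5 genes, edgeR called 0. At an unadjusted p under 0.05, 5 went up and 4 down (7.83% together, against 7.51% of all genes), 59 folds lay above 0 on the log2 scale and 56 below, and the median was 0.01. DESeq2 called 3, namely Baiap2, Sytl2 and Slc28a2, against 1.65% of all genes. Without Ang II replicate 1, edgeR called 3 of the 119 list genes that it then tested, namely Baiap2, Nt5e and Slc28a2, against 0.73% of all genes. In that fit 2711 of 17661 genes had an unadjusted p under 0.05. The counts upward and downward were 3 and 0 of 12 for the Fam13a-linked list and 1 and 4 of 40 for vesicle fusion. They were 4 and 0 of 26 for Eps8 partners and 4 and 6 of 41 for pyrimidine nucleotides.

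The signalling list around Fam13a covered Sirt1, Foxo1, Cpt1a, beta-catenin and its destruction complex, and PP2A. With all 6 libraries, 0 of its 12 genes reached an unadjusted p under 0.05. The smallest p belonged to Csnk1a1, a kinase that primes beta-catenin for degradation (log2 change 0.27, edgeR adjusted p = 0.701). Foxo1, a transcription factor of metabolic control, had a log2 change of 0.26 (edgeR adjusted p = 0.769). Ctnnb1, which encodes beta-catenin, stood at 180, 197 and 179 CPM in controls and at 99.9, 179 and 170 CPM with Ang II, with Ang II replicate 1 far below the other 5 libraries (log2 change -0.31, edgeR adjusted p = 0.783).

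Among 37 tested genes of vesicle fusion, the machinery on which synaptotagmins act, 0 were called, and an unadjusted p under 0.05 was reached by 0 upward and 2 downward. Sytl2, a Rab27 effector that tethers vesicles, stood at 0.854, 1.04 and 0.691 CPM in controls and at 0.184, 0.213 and 0.281 CPM with Ang II. The change was -1.91 on the log2 scale (SE 0.42), and its adjusted p was 0.365 by edgeR and 0.0081 by DESeq2. Its level was low, and its groups did not overlap. The vesicle-priming gene Unc13b had a log2 change of -0.51 (SE 0.17, edgeR adjusted p = 0.583), and the SNARE gene Stx3 of 0.29 (edgeR adjusted p = 0.684).

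Among 26 tested partners of Eps8 proteins in actin remodelling, 0 were called, with 2 upward and 0 downward at that unadjusted level. Baiap2 (IRSp53), which binds Eps8 and bends membrane at actin protrusions, stood at 5.89, 5.11 and 4.31 CPM in controls and at 13.8, 12.9 and 12.6 CPM in Ang II hearts. The 2 groups were well apart, with a log2 change of 1.36 (SE 0.17) and an edgeR adjusted p of 0.118. Without Ang II replicate 1 the adjusted p was 0.044, and DESeq2 gave 4.2e-09. Brk1, a subunit of the WAVE complex, had a log2 change of 0.49 (SE 0.18, edgeR adjusted p = 0.599), and Usp6nl, a Rab5 GTPase-activating protein that binds Eps8, of -0.29 (edgeR adjusted p = 0.732).

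Among 40 tested genes of pyrimidine nucleotide synthesis, salvage, transport and breakdown, edgeR called 0, with 3 upward and 2 downward at the unadjusted level. Slc28a2, a concentrative nucleoside transporter, stood at 54.2, 48.5 and 54.5 CPM in controls and at 35.7, 30.6 and 28.6 CPM with Ang II, lower in every library. Its log2 change was -0.73 (SE 0.15), with an edgeR adjusted p of 0.337, and leaving out Ang II replicate 1 gave -0.82 and 0.044. Nt5c3, a pyrimidine 5′-nucleotidase, stood at 23.5 to 29.0 CPM in controls and 33.8 to 38.9 CPM with Ang II (log2 change 0.52, SE 0.15, edgeR adjusted p = 0.512). Tymp, thymidine phosphorylase, was scarce, at 0.197 to 0.270 and 0.520 to 0.920 CPM (log2 change 1.55, SE 0.45, edgeR adjusted p = 0.520). Nt5e, the surface 5′-nucleotidase CD73, named here because leaving out a library changed its call, stood at 7.96 to 10.5 CPM in controls and at 7.96, 28.6 and 26.9 CPM with Ang II. Its Ang II replicate 1 equalled the lowest control to 3 digits. With all 6 libraries Nt5e had a log2 change of 1.24 (SE 0.46), and its adjusted p was 0.604 by edgeR and 0.228 by DESeq2. Without that library the log2 change was 1.63 (edgeR adjusted p = 0.019).

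**Figure D5:**
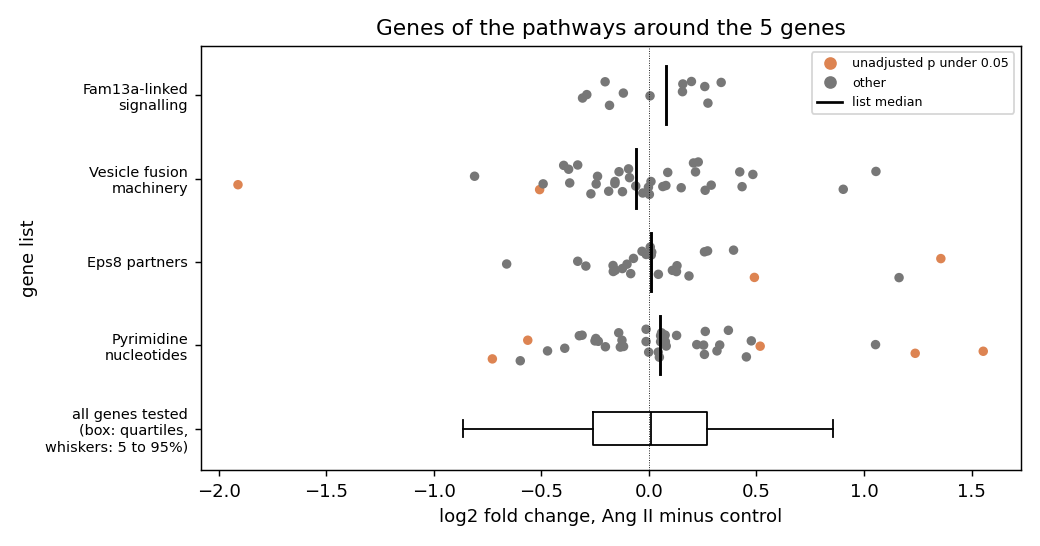
Log2 change (Ang II minus control) of the tested genes in each of 4 pathway lists, 1 point per gene, with orange for an unadjusted p under 0.05, a thick line at the list median and a box for all genes tested. With all 6 libraries the list medians lie between -0.06 and 0.08, near that of all genes. Single genes such as Sytl2 at -1.91 and Baiap2 at 1.36 lie outside the bulk.

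The nearest tested genes on each side were compared for each of the 5, to see whether a stretch of chromosome moved with it. Of 10 neighbours, edgeR called 0, where its share over the 16759 genes was 0.0358%. For 0 of the 10 was the unadjusted p below 0.05, where that share was 7.51%. With shares this small, 10 genes are too few for these zeros to separate neighbours from other genes. The log2 changes of the 10 ran from -0.39 to 0.36. Beside Fam13a lay Herc3 at 11692 bp (log2 change 0.29, edgeR adjusted p = 0.877), and beside Syt12 lay Rhod at 6476 bp (log2 change 0.17, edgeR adjusted p = 0.902). Ppp1r12c, 2276 bp from Eps8l1, had a log2 change of -0.25 (edgeR adjusted p = 0.845), Tmco1, 23058 bp from Uck2, of -0.12 (edgeR adjusted p = 0.851), and Prpf38b, 59270 bp from Fam102b, of -0.39 (edgeR adjusted p = 0.764). The other neighbours were Tigd2 (0.12), Pcx (0.29), Rdh13 (0.08), Fam78b (-0.21) and Gm19391 (0.36), with edgeR adjusted p from 0.680 to 0.902. Genes annotated on the opposite strand within Fam13a, Syt12 and Fam102b had at most 8, 22 and 4 counts in any library. Whether the counting used strand is not given in the sources used here.

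Genes with the most similar profile were ranked by Pearson r of log2 CPM over the 6 libraries, among 6141 genes with a mean FPKM of at least 2, as a description. The 6 points share a split into 2 groups, so any gene with a clean group difference scores high, and between 42 and 80 candidates exceeded 0.95 for each of the 5. Closest to Fam13a were Ccn2 (r = 0.998), a matricellular growth factor, and Hbegf (r = 0.997), a ligand of the EGF receptor. Ccn2 stood at 44.9, 50.2 and 45.5 CPM in controls and 165, 188 and 177 CPM with Ang II.

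Closest to Syt12 were Des (r = 0.995), the muscle intermediate filament desmin, and Adprhl1 (r = 0.994). Des stood at 1244, 1464 and 1290 CPM in controls and 2102, 2133 and 2038 CPM with Ang II. Closest to Eps8l1 were Sumo3 (r = 0.996), a ubiquitin-like modifier, and Xirp2 (r = 0.994), which binds actin at intercalated discs. Xirp2 stood at 137, 185 and 160 CPM in controls and 361, 430 and 432 CPM with Ang II.

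Closest to Uck2 were Tmem144 (r = 0.995), at 11.4, 13.3 and 11.7 CPM in controls and 23.8, 29.1 and 30.3 CPM with Ang II, and BC005537 (r = 0.993). Closest to Fam102b were Ece1 (r = 0.998), the endothelin-converting enzyme, and Phlda1 (r = 0.991). Ece1 stood at 66.6, 67.8 and 67.3 CPM in controls and 45.7, 49.5 and 52.4 CPM with Ang II, a far smaller change than that of Fam102b, with the same order among the Ang II libraries. Between each other, the 4 genes higher with Ang II had r from 0.964 to 0.991, and with Fam102b r from -0.962 to -0.903.

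The table's own annotation sets the genes apart. Fam13a and Fam102b carry 0 gene ontology terms beyond the 3 root terms. Syt12 carries 26 terms, Eps8l1 16 and Uck2 13, and Uck2 alone of the 5 has KEGG pathways, pyrimidine metabolism and drug metabolism by other enzymes. Eps8l1 and Uck2 share protein binding and cytosol, and Syt12 and Eps8l1 share plasma membrane.

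Cell type markers were summed in each library as deposited FPKM. These are not TMM-scaled (factors from 0.795 in control 1 to 1.15 in control 2), so whether sums overlap between groups can depend on scaling. Of 10 lists of 8 markers, edgeR called 0 genes. The cardiomyocyte list was higher with Ang II in its summed FPKM, and 8 of 8 folds lay above 0 on the log2 scale. The red blood cell list was lower, at 1132 to 2013 in controls and 604 to 640 with Ang II, with 8 of 8 folds below 0 and 7 at an unadjusted p under 0.05 (3.94% of all genes were lower at that level, and 50.9% had a fold above 0). The endothelial list stood at 113 to 155 and 108 to 119, with 7 of 8 folds below 0 and a median log2 change of -0.36. Of these 8 genes, 4 had an unadjusted p under 0.05, against 7.51% of all genes in either direction.

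Of the other lists, all but the adipocyte list overlapped between the groups in summed FPKM as deposited. Overlap of TMM-scaled sums was not computed. Fibroblast markers stood at 322 to 442 FPKM in controls and 287 to 403 with Ang II, with 7 of 8 folds below 0. Of these 8 genes, 3 had an unadjusted p under 0.05. For this and the lists below, the share of all genes at that level was 7.51% in either direction. Smooth muscle and pericyte markers stood at 122 to 194 and 117 to 177, and macrophage markers at 65.3 to 97.9 and 70.1 to 136, the highest in Ang II replicate 1. Adipocyte markers summed to 157 to 176 and 194 to 211, with Lep at 0 counts in every library. In contrast to that sum, 5 of 7 tested folds lay below 0, with a median log2 change of -2.295 and 2 at an unadjusted p under 0.05. The sum and the median of this list thus went opposite ways. Lymphocyte markers summed to 0.795 to 1.05 and 0.632 to 0.803. Markers of neurons and Schwann cells, where synaptotagmins abound, summed to 2.72 to 3.45 FPKM in controls and 2.69 to 4.73 with Ang II, with Th at 0 counts in every library, and 3 of 5 tested genes had an unadjusted p under 0.05 (2 folds above 0 and 3 below). Mesothelial and epithelial markers summed to 0.262 to 2.01 and 0.720 to 0.992 FPKM, with Upk1b at 0 counts in every library. Of their tested folds, 6 of 6 lay below 0, where 50.9% of all genes had a fold above 0 (median log2 change -0.95, 0 at an unadjusted p under 0.05). The part of any of the 10 marker lists in the values of the 5 genes was not tested.

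A list of 8 hepatocyte genes, chosen after the data were seen, summed to 115, 0.691 and 55.9 CPM in the 3 controls and to 2.23, 0.967 and 1.80 CPM in the Ang II hearts. Fam102b stood at 10.6, 9.20 and 10.6 CPM in the same 3 controls. The part of this list in the values of Fam102b was not tested.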

How the data were processed

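RNA from 6 hearts was read as 1 library each. Per the submitters' processing notes the tools were Bowtie 0.12.2, HISAT2 2.0 and StringTie 1.3.0, with no roles given. The notes name mm8. Of 55141 gene IDs also in GENCODE M21, 94.2% sat at the same GRCm38 positions, so GRCm38 is used here. The authors deposited an estimated count (whole numbers) and FPKM per gene, with 0.0001 FPKM standing for 0.

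Counts were tested with edgeR 4.0.16 (filterByExpr, TMM, quasi-likelihood, two-sided, Benjamini-Hochberg over 16759 genes), with DESeq2 1.42.0 and limma 3.58.1 on log2(FPKM + 0.5) as alternatives, in R 4.3.3. The SE is the log2 change over the square root of F. Chi-square over degrees of freedom between replicates was 31.6 to 441.8, so no library was a copy of another. Scripts were tested on simulated data. CPM is on TMM-scaled library sizes with no pseudocount.

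The 5 genes and all lists were chosen with earlier results of these data known. Named genes were the 5, all tested relatives, the 3 smallest p of each pathway list, the nearest tested neighbour on each side and the 2 genes most alike per member. Promoters came from RefSeq.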

Additional observations from a re-analysis of the deposited data

How the results depend on the processing

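The test across genes depended strongly on settings: 6 genes were called in all, 12 with no filter on low counts, 276 by DESeq2, and by limma 3 on log2(FPKM + 0.5), 2 with 0.1, 3 with 1 and 1 with 0.5 and no filter. Leaving out 1 library at a time gave 0 to 129 calls. The highest was without Ang II replicate 1, 2 were called without Ang II replicate 2, and 0 were called without any 1 control or without Ang II replicate 3 (851 to 1114 genes at an unadjusted p under 0.05). With the replicate block edgeR called 0 genes (1104 at an unadjusted p under 0.05). Deviations of same-numbered libraries correlated at 0.078, 0.112 and -0.037, and not every library correlated best with its own number, so the numbers are not taken as pairs. Of 80 alternative values of the 5 chosen genes, 0 changed sign and 17 moved by more than the replicate spread, all on the log2(FPKM + pseudocount) scale. Of the alternative medians of the family and pathway lists, 12 moved by more than the replicate spread and 132 did not. Without Ang II replicate 1 the median log2 change of the pyrimidine list was -0.15, against 0.05 with all 6 libraries. That of the other synaptotagmins was -0.05, against -0.30. Small changes of relatives and neighbours changed sign. Ehbp1 was 0.0059, 0.0014 and 0.0091 by limma with 0.5, 0.1 and 1 (0.0059 with no filter), and Eps8 was 0.0023 by limma with no filter. Over the libraries left out in turn, log2 changes ran from -0.92 to 0.24 for Syt2, -0.18 to 0.14 for Eps8, -0.14 to 0.16 for Ehbp1, -0.10 to 0.36 for Rhod and -0.40 to 0.017 for Ppp1r12c. The cause was not tested. Depth limits Fam102b with Ang II (4 to 46 counts) and Syt12 in controls (36 to 93 counts).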
